A study of Mus musculus with 12 samples.

Results

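Col1a2 encodes the alpha 2 chain of type I collagen, the main fibre-forming collagen of connective tissue. In RNA isolated from the mouse meninges as lymphatic endothelium, its level differed widely between libraries. The 12 libraries were ranked by the deposited log2 value of Col1a2, and the 4 highest (called rich here) were compared with the 4 lowest (called poor) across all genes other than Col1a2. Both sets were therefore chosen by a measured value. Col1a2 itself is described without a test, and a p-value for another gene describes how that gene varies with Col1a2 between libraries, not an effect of a condition of the study.

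The series measured RNA of mice aged 20 weeks, taken from the meninges by magnetic cell sorting and isolated with Trizol. Libraries came from 500 ng of RNA and a Lexogen QuantSeq kit, which reads transcripts near 1 end. The titles give 3 labels of 4 libraries each, AD_TG, AD_B6 and SJL_B6, which are not spelled out, and the strain entry is C57BL/6 throughout. The design names 3 to 4 mice per strain and does not say which mice entered which library. P-values therefore refer only to a spread between these samples, which may be technical. For each gene, limma also draws that spread towards the spread of other tested genes of similar level.

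Meningeal fibroblasts fill the dura, arachnoid and pia and are the known source of fibrillar collagen in these membranes. Type I collagen is a triple helix of Col1a1 and Col1a2 chains, and type III collagen, made of Col3a1 chains, is laid down in the same fibrils. Small leucine-rich proteoglycans such as decorin bind the fibrils and set their spacing, while elastic fibres, fibronectin and matricellular proteins link them to cells. In the vessel wall, by contrast, lymphatic endothelium is recognised by Prox1, Lyve1, Flt4 and Pdpn.

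The rich set held AD_B6 replicate 3 (Col1a2 at a log2 value of 14.53), AD_TG replicate 3 (14.15), SJL_B6 replicate 2 (14.14) and SJL_B6 replicate 3 (13.71). The poor set held AD_B6 replicate 2 (12.78), AD_B6 replicate 1 (12.66), SJL_B6 replicate 1 (12.55) and AD_TG replicate 2 (11.98). The 4 libraries between stood at 13.49 and 13.33 (AD_TG replicates 4 and 1), 13.15 (SJL_B6 replicate 4) and 13.01 (AD_B6 replicate 4). The ranking has no wide break, since the lowest rich library at 13.71 lies close to the next at 13.49, and the highest poor library at 12.78 lies close to 13.01. As a share of the linear total, Col1a2 took 0.381, 0.283, 0.274 and 0.193% of the rich libraries, in rank order, and 0.104, 0.102, 0.0762 and 0.0560% of the poor ones. Whether a rich library held more fibroblasts, or the same number with more Col1a2 RNA in each, cannot be told apart in bulk RNA.

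**Figure D1:**
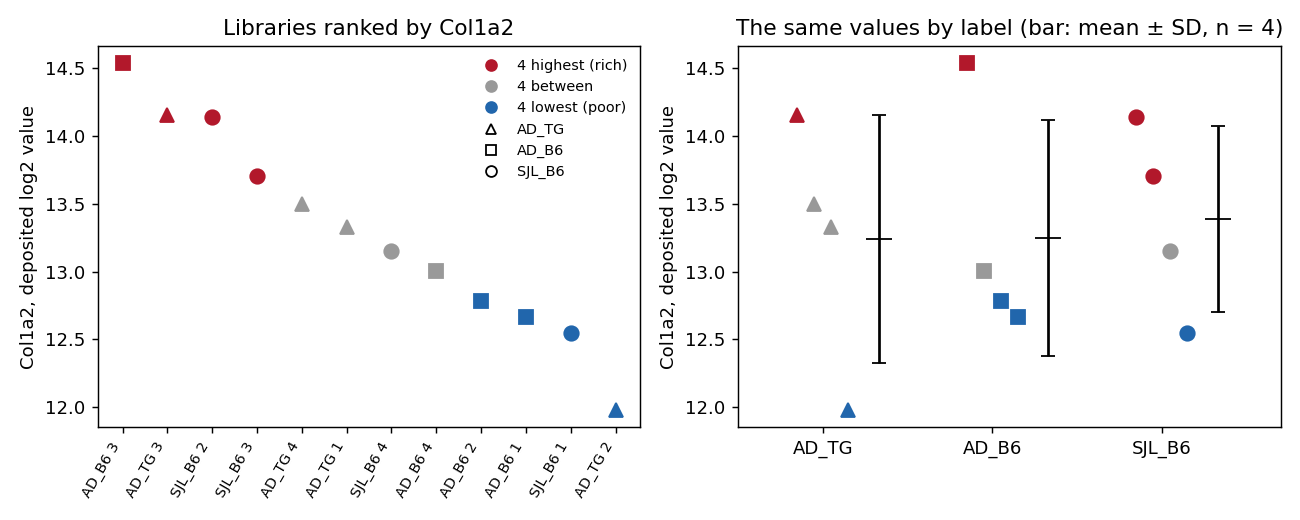
The left panel plots the deposited log2 value of Col1a2 in each of the 12 libraries, ranked from highest to lowest, and the right panel shows the same points by label with mean and SD (n = 4). The ranking descends from 14.53 to 11.98 in small steps, and every label contributes libraries to both the rich and the poor end.

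Each label was in both sets. AD_TG had 1 rich and 1 poor library, AD_B6 had 1 rich and 2 poor, and SJL_B6 had 2 rich and 1 poor. Col1a2 averaged 13.24 ± 0.91 in AD_TG, 13.25 ± 0.87 in AD_B6 and 13.39 ± 0.69 in SJL_B6 (SD, n = 4). The difference was -0.01 for AD_TG against AD_B6 (exact permutation p = 1.0), -0.15 for AD_TG against SJL_B6 (exact p = 0.8) and -0.14 for AD_B6 against SJL_B6 (exact p = 0.83). Adjusted over these 3 comparisons, each p was 1.0, where 4 against 4 can reach no lower than 0.0286. The sets followed the replicate number more closely than the label: number 3 appeared in the rich set only, with all 3 of its libraries, and number 1 in the poor set only, with 2 of its 3. What the number stands for is not given, so Col1a2 and the number cannot be told apart as what a gene varies with.

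The sets overlapped in the measures of library quality. Estimated reads ran from 4070924 to 9241157 in the rich libraries and from 6690362 to 9266737 in the poor ones. The exact two-sided permutation test gave p = 0.686. Genes with reads numbered 10743 ± 1342 in the rich and 11301 ± 719 in the poor libraries (SD, n = 4; exact p = 0.629). The lowest number, 8748, belonged to AD_B6 replicate 3, the library highest in Col1a2, so the counts of the gene lists with 4 or more tested members are also given without it. Linear totals ran from 6216992 to 6925676 in the rich and from 6350548 to 7872830 in the poor libraries (exact p = 0.229), and all 3 measures had an adjusted p of 0.686. No count table was used here, so reads were estimated from the size of the smallest steps in each file.

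The promoters of Col1a2 and of the 2 genes that passed the test are shown because their transcripts moved together between libraries. Each is the 250 bases upstream of the transcription start in RefSeq, build GRCm38.p6, written 5′ to 3′ on the gene's own strand, with a CCAAT or TATAAA in capitals. Col1a2 lies at chr6:4505368-4505617 on the plus strand, Col3a1 at chr1:45311288-45311537 on the plus strand and Igfbp5 at chr1:72874866-72875115 on the minus strand.
Col1a2: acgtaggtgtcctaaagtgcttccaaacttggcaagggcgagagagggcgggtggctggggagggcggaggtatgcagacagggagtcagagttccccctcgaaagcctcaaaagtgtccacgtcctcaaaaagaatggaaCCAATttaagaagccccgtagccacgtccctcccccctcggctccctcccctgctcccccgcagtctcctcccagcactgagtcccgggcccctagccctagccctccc
Col3a1: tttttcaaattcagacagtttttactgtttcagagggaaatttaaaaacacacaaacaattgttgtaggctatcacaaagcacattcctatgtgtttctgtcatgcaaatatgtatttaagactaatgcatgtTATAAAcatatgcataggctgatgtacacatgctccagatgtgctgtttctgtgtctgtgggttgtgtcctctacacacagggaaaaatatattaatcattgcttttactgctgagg
Igfbp5: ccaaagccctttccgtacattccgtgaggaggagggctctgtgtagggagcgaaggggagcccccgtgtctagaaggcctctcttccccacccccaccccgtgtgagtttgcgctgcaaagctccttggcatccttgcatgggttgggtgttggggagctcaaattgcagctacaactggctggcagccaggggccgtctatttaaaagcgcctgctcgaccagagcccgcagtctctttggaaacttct

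Searched on both strands, the Col1a2 promoter held 1 CCAAT, whose first base lies at position -109 from the start, and no TATAAA. The Col3a1 promoter held 1 TATAAA, near the middle of the stretch and away from the start, and no CCAAT. That of Igfbp5 held neither. Among 27025 mouse promoters of the same length, 34.2% held a CCAAT and 12.9% a TATAAA. Their G and C content was 62.0% for Col1a2, 35.2% for Col3a1 and 58.8% for Igfbp5, beside a median of 52.0% over all promoters. Neither motif was in all 3 stretches. The Col1a1 and Dcn promoters were not analysed here.

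Of 11954 genes tested with limma (adjusted p below 0.05 over all of them), 2 were called higher in the rich libraries, which is 0.0167%, and 0 were called lower, which is 0%. At an unadjusted p below 0.05, 305 genes were higher and 458 lower. Igfbp5 and Col3a1 were the genes called. The median difference over all tested genes was -0.12 on the log2 scale, with a positive difference in 46.2% of genes. This background changed sign without AD_B6 replicate 3, to a median of 0.10 with 53.1% of genes positive. All 4 rich libraries lay above all 4 poor ones in 193 genes (1.61%) and below them in 234 (1.96%), the background for every gene described below as apart between the sets. Over a single gene the precision was low, since the 95% interval reached, in the median, 3.78 to either side of the difference, and 0.90 for the 966 genes with a mean log2 value of 10 or more.

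Igfbp5, a secreted protein that binds insulin-like growth factors and also extracellular matrix, stood at 14.65, 14.57, 13.51 and 13.77 in the rich libraries, in the order of their Col1a2 rank. It stood at 12.95, 12.72, 12.79 and 12.44 in the poor libraries. The lowest rich library lay above the highest poor one. The difference was 1.40 (SE 0.24; limma adjusted p = 0.0360), which is the log2 of a ratio of linear values. Within the labels, the rich libraries exceeded the poor by 2.13 in AD_TG, 1.81 in AD_B6 and 0.85 in SJL_B6.

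Col3a1, the chain of type III collagen, stood at 12.51, 12.32, 11.30 and 10.87 in the rich libraries. In the poor libraries it stood at 9.07, 8.89, 8.49 and 9.82. The sets did not overlap, and the poor library with the least Col1a2 had the most Col3a1 of its set. The difference was 2.69 (SE 0.49; limma adjusted p = 0.0449), with 2.50 in AD_TG, 3.53 in AD_B6 and 2.60 in SJL_B6.

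Both calls were borderline. They were lost when any of AD_B6 replicates 1, 2 and 3, AD_TG replicates 2 and 3 and SJL_B6 replicates 1 and 3 was left out. The adjusted p of Igfbp5 then ran up to 0.813 and that of Col3a1 up to 0.813, while their differences stayed between 1.22 and 1.60 and between 2.43 and 2.98 over all 8 omissions. Without SJL_B6 replicate 2, limma called 5 genes, Col3a1, Dcn, Igfbp5, Lars2 and Lhx3, of which Lhx3 was lower. Without the trend of the variance on the level, limma called 19 genes, 8 of them higher, and gave Igfbp5 an adjusted p of 0.879 and Col3a1 one of 0.721.

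Next in order was Dcn, the gene of decorin, which coats collagen fibrils. It stood at 13.38, 12.14, 11.36 and 12.39 in the rich libraries and at 10.24, 10.41, 10.50 and 9.61 in the poor ones. The sets were apart, with a difference of 2.13 (SE 0.40), and the limma adjusted p of 0.0531 missed the threshold. Col1a1, the partner of Col1a2 in type I collagen, stood at 13.61, 13.72, 12.59 and 12.66 in the rich libraries and at 11.59, 12.21, 12.51 and 11.05 in the poor ones. Its difference of 1.31 (SE 0.32; limma adjusted p = 0.508) did not pass, and the lowest rich and the highest poor library almost touched. Within labels the Col1a1 difference was 2.67 in AD_TG, 1.71 in AD_B6 and 0.11 in SJL_B6, so the SJL_B6 libraries differed in Col1a2 with little difference in Col1a1.

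**Figure D2:**
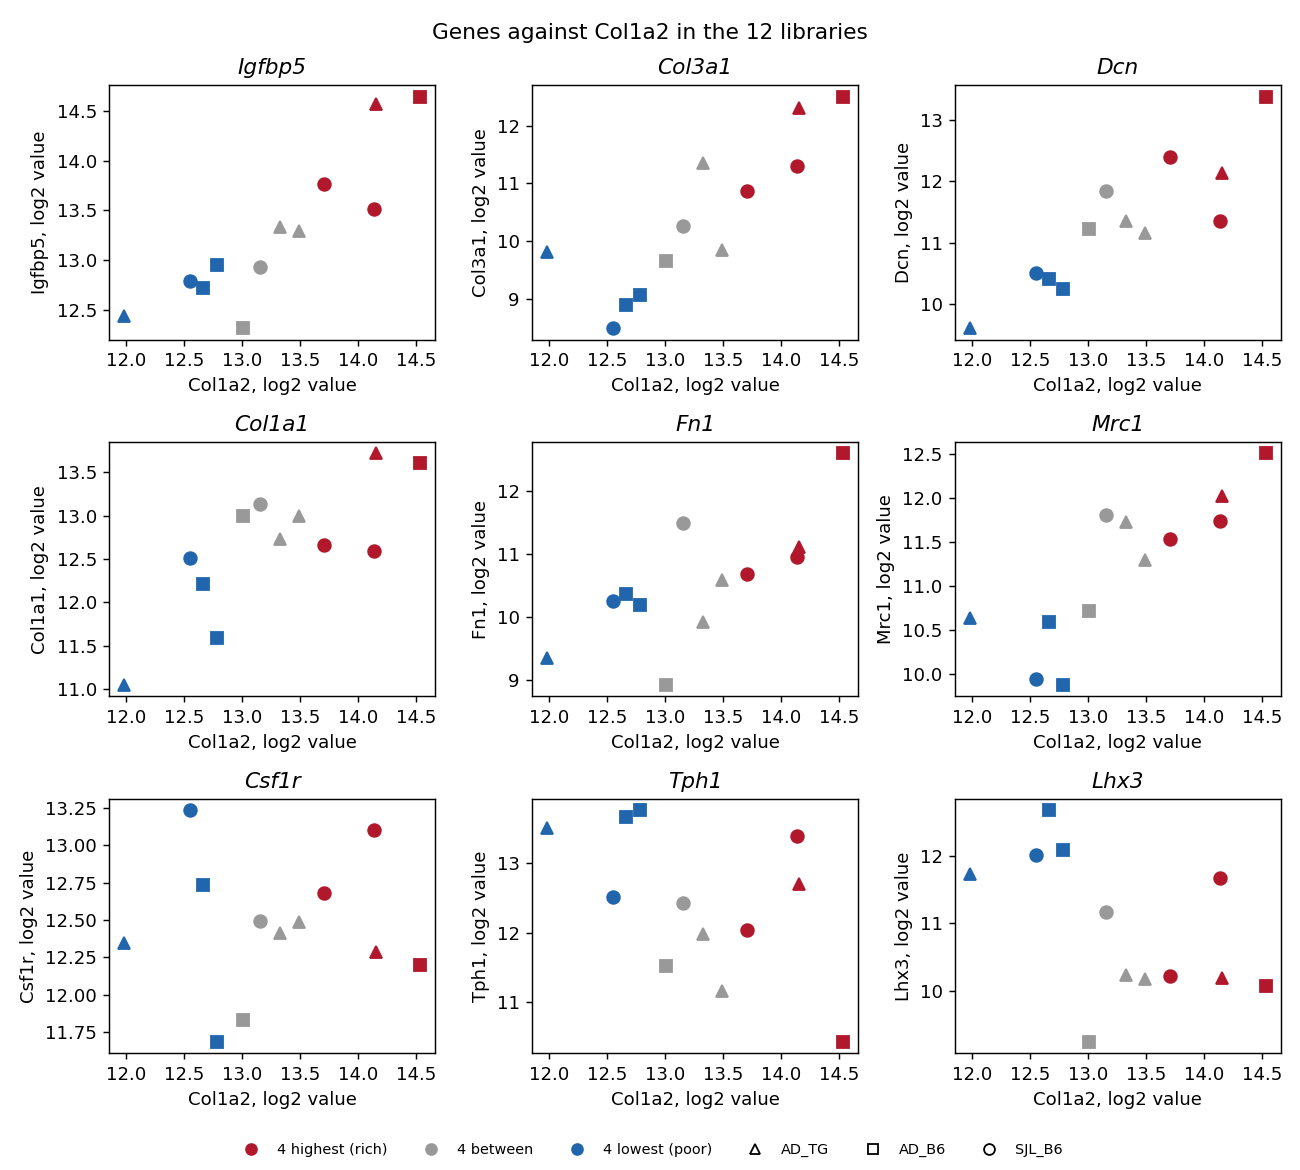
Each panel plots the deposited log2 value of a gene (y axis) against that of Col1a2 (x axis) in the 12 libraries, with colour for the set and shape for the label. Igfbp5, Col3a1, Dcn and Mrc1 climb with Col1a2, Csf1r does not, and for Lhx3 the 4 poor libraries lie at 11.73 to 12.67, above the rich ones at 10.07 to 11.67.

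Other genes with reads in all 12 libraries completed the list of the 10 smallest p-values in each direction, and none of them passed. Mrc1, the mannose receptor of meningeal and perivascular macrophages, stood at 11.54 to 12.51 in the rich and at 9.88 to 10.63 in the poor libraries (difference 1.69, limma adjusted p = 0.378). Slc23a2, a vitamin C transporter, stood at 12.84, 11.61, 11.56 and 11.36 against 10.50, 10.21, 9.05 and 10.24 (difference 1.84, adjusted p = 0.428). Vitamin C is the cofactor of the prolyl hydroxylases that stabilise the collagen helix. Sepp1, the selenium carrier selenoprotein P, differed by 1.11, Tmsb4x, which binds actin monomers, by 0.95, and the ubiquitin ligase Nedd4 by 1.02. Cdc42bpa, a kinase that acts downstream of Cdc42, differed by 3.23. These 4 each had an adjusted p of 0.754.

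In the opposite direction, Chrnb4, a nicotinic acetylcholine receptor subunit, stood at 10.71, 11.18, 11.70 and 10.20 in the rich libraries and at 12.91, 12.73, 11.82 and 12.46 in the poor ones. Its difference was -1.53 (SE 0.35; limma adjusted p = 0.409). Lhx3, a LIM homeobox factor of the pituitary and of motor neurons, stood at 10.07, 10.19, 11.67 and 10.22 against 12.08, 12.67, 12.01 and 11.73, a difference of -1.59 with an adjusted p of 0.508. Only SJL_B6 replicate 2 came near the poor libraries. Pkm, the glycolytic enzyme pyruvate kinase, varied little within a set: it averaged 11.72 ± 0.37 in the rich and 12.79 ± 0.14 in the poor libraries (SD, n = 4; difference -1.07, limma adjusted p = 0.754). The same adjusted p held for Npr2, the receptor of C-type natriuretic peptide (-2.39), the pseudokinase gene Trib1 (-2.12), Plekhh2 (-2.14), 2900060B14Rik (-1.30), the myristoyltransferase Nmt1 (-2.01) and Wscd1 (-1.48). Rich and poor libraries overlapped in Plekhh2 and were apart in the other genes named here.

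**Figure D3:**
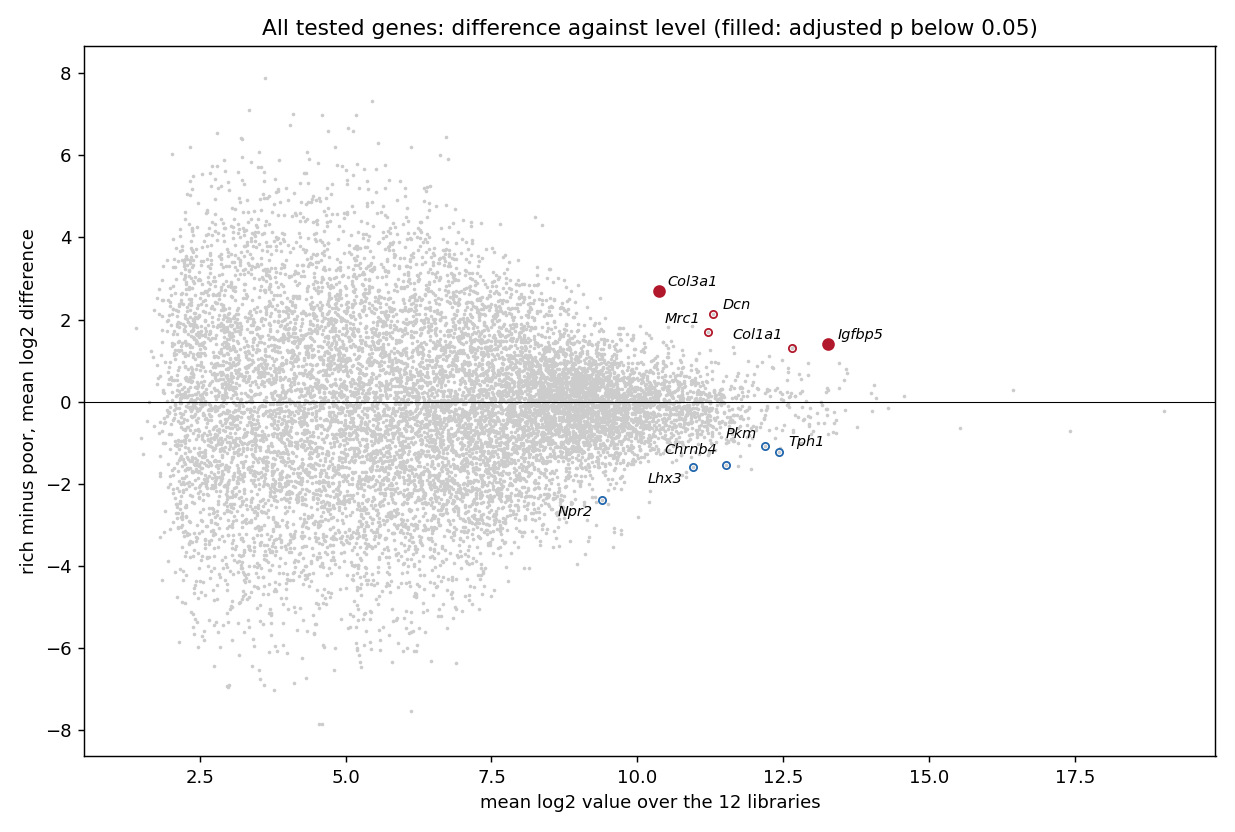
Each point is 1 of the 11954 tested genes, with its mean log2 value over the 12 libraries on the x axis and its rich minus poor difference on the y axis. The spread is several log2 units wide among genes of low level and narrows to the right, where the 2 called genes, Col3a1 and Igfbp5, lie at the upper edge.

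Among tested genes without reads in some library, the 5 smallest p-values in each direction belonged to genes that came and went between libraries. Lum, the gene of lumican, a proteoglycan of the decorin family, stood at 10.24, 9.68, 7.82 and 9.08 in the rich libraries. In the poor libraries it stood at 4.24, 2.19 and 6.38, and was listed at 0 in AD_B6 replicate 2. Matn4, the matrix adaptor matrilin 4, stood at 9.55 to 10.85 in the rich libraries and at 8.42, 5.89 and 8.21 in poor ones, with 0 in AD_B6 replicate 1. The Golgi mannosidase gene Man2a1 stood at 9.47 to 10.38 in the rich libraries and, in the poor ones, at 8.83, 6.58 and 7.28, with 0 in AD_B6 replicate 2. Wars, a transfer RNA synthetase, stood at 8.0 to 9.43 in the rich libraries and had reads in 2 of 4 poor ones, at 3.38 and 3.98. Snx9, a sorting nexin of endocytosis, stood at 6.94 to 8.65 in the rich libraries, with no reads in the poor ones, where it was listed at 0 or at a value under that of 1 read.

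The mirror image was seen for Sqle, an enzyme of cholesterol synthesis, which had no reads in the rich libraries and stood at 6.93 to 8.47 in the poor ones. Srbd1 likewise had no reads in the rich libraries, against 7.26 to 9.05 in the poor ones. Hivep2, a zinc finger factor, had reads in 2 rich libraries, at 2.86 and 2.39, against 7.24 to 9.72 in the poor ones. Rnf208 had reads in 3 rich libraries (8.11, 6.02 and 6.48), and Cyb561a3 in 2 (8.71 and 6.67), where the poor libraries held 9.53 to 10.10 and 9.01 to 10.33. All 10 genes had a limma adjusted p of 0.754.

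The gene lists of matrix and cell types were described by how many tested members had a positive difference, beside 46.2% over all tested genes, and by their median, beside -0.12. A gene was tested only if at least 4 of the 12 libraries reached a linear value of 10, so these counts do not cover the members of lowest level, and no list was tested as a whole. Limma called no listed gene apart from Col3a1 and Igfbp5.

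Of the 7 fibrillar collagen chains other than Col1a2, 6 were tested, and 4 had a positive difference, with a median of 0.25. The list was uneven, since Col3a1 and Col1a1 stood apart between the sets while Col5a1 (0.07), Col5a2 (0.42), Col5a3 (-0.54) and Col11a1 (-0.56) overlapped. Types V and XI nucleate and limit fibrils. Summed over the 7 chains, the list made up 0.135 to 0.309% of the rich and 0.0484 to 0.109% of the poor libraries. Of 12 tested collagens of other interstitial types (13 listed), 8 were positive, with a median of 0.59. Col6a1, a chain of the beaded filaments around cells, stood at 11.25 to 11.55 in the rich and at 9.46 to 11.16 in the poor libraries (0.96), whereas its partner Col6a2 overlapped (0.43) and so did Col8a1 (-0.13).

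The machinery that makes collagen stood closer to the background. Of 25 tested genes of collagen folding, processing and crosslinking (29 listed), 14 had a positive difference, with a median of 0.18. Lox, the enzyme that crosslinks collagen and elastin, stood at 9.04, 8.21, 8.24 and 7.46 in the rich libraries and at 6.84, 3.39 and 5.14 in poor ones, with 0 in AD_B6 replicate 2 (limma adjusted p = 0.754). Sparc, a collagen-binding protein of high level, averaged 12.59 ± 0.19 in the rich and 12.49 ± 0.35 in the poor libraries (SD, n = 4), and the chaperone gene Serpinh1 differed by 0.44. The prolyl hydroxylase gene P4ha2 differed the other way, by -3.06, with overlap, and had no reads in AD_TG replicate 3. Within labels its difference was -8.91 in AD_TG, -0.89 in AD_B6 and -0.05 in SJL_B6.

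The proteoglycans of the decorin family bind collagen fibrils. Of the 10 listed, 8 were tested and 7 of these had a positive difference, with a median of 1.23. Besides Dcn and Lum, Omd, the gene of osteomodulin, stood apart between the sets (2.92). Fmod, the gene of fibromodulin, stood at 10.80 to 11.56 in the rich and at 9.81 to 10.84 in the poor libraries, nearly apart. Ogn differed by 1.18 with overlap, Bgn, the gene of biglycan, by 0.24 and Prelp by -1.0. Summed, the list made up 0.124 to 0.307% of the rich and 0.0696 to 0.112% of the poor libraries.

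Elastic fibres and adhesive proteins join the fibrils to cells. Of 15 tested elastic fibre genes (16 listed), 11 were positive, with a median of 0.94. Emilin1, a glycoprotein at the surface of elastic fibres, averaged 9.88 ± 1.07 in the rich and 7.75 ± 0.27 in the poor libraries (SD, n = 4), with the lowest rich library at 8.70 and the highest poor one at 8.05 (difference 2.13, limma adjusted p = 0.754). Fbln5 went the other way without overlap, at 9.93 to 10.08 in the rich and 10.14 to 10.83 in the poor libraries. Of 18 tested adhesive and matricellular genes (20 listed), 15 were positive, with a median of 1.28. Fn1, the gene of fibronectin, stood at 12.59, 11.11, 10.94 and 10.68 against 10.18, 10.36, 10.25 and 9.35 (difference 1.30, adjusted p = 0.754). Tgfbi, an adhesive protein induced by TGF-beta, stood at 10.22 to 10.97 against 5.03 to 10.18. Ecm1 stood at 7.95 to 8.93 in the rich libraries and at 4.96, 0.95 and 1.76 in poor ones, with 0 in AD_TG replicate 2. Summed, the adhesive list made up 0.149 to 0.293% of the rich and 0.0905 to 0.139% of the poor libraries.

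Matrix turnover and basement membrane were mixed. Of 17 tested turnover genes (19 listed), 11 had a positive difference, with a median of 1.11. Without AD_B6 replicate 3 this median dropped to 0.10, beside 0.10 over all tested genes. Timp2, the inhibitor of gelatinase A, averaged 13.17 ± 0.42 in the rich and 13.16 ± 0.80 in the poor libraries (SD, n = 4), with wide overlap. Mmp23 had reads in 3 rich libraries, at 8.32, 6.67 and 7.42, and had no reads in the 4 poor ones. Of 15 tested basement membrane genes (18 listed), 9 were positive, with a median of 0.17. Nid1, which links laminin to type IV collagen, differed by 1.88 with overlap. Endothelial and mural cells make basement membrane as well as fibroblasts.

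The growth factor lists also split. Of 10 insulin-like growth factor genes, all tested, 5 had a positive difference. The positive values included Igfbp5 and Igfbp4, a binding protein that stood at 12.60 to 12.98 in the rich and at 10.99 to 12.56 in the poor libraries (0.85, limma adjusted p = 0.754). Igf2, a growth factor of leptomeninges and choroid plexus, stood at 11.77 to 13.56 against 12.04 to 13.86, a difference of -0.09. Of 17 tested TGF-beta genes (18 listed), 9 were positive and 8 negative, with a median of 0.57. The receptor gene Tgfbr2 stood at 10.88, 10.87, 11.06 and 8.86 in the rich and at 8.72, 9.71, 7.84 and 8.28 in the poor libraries. Its difference was 1.78 with overlap (limma adjusted p = 0.754).

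Genes of meningeal fibroblast identity, chosen for cell type rather than for matrix, mostly shared the direction. Of 36 listed besides Col1a2, 33 were tested, and 27 of these had a positive difference, with a median of 1.14. Among the 17 with a mean log2 value of 8 or more, 15 were positive with a median of 0.94, beside 45.5% and -0.09 over the 3774 tested genes of that level. Without AD_B6 replicate 3, 26 of the 33 were positive with a median of 0.93, beside 53.1% and 0.10 over all tested genes. The list shares Dcn, Lum and Mfap4 with the matrix lists.

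Islr, a gene of mesenchymal stromal cells, stood at 11.25, 11.02, 10.84 and 11.18 in the rich and at 9.68, 10.41, 8.97 and 8.99 in the poor libraries (difference 1.56, SE 0.48; limma adjusted p = 0.754). Zic1, a transcription factor of the meninges, stood at 11.68, 10.22, 10.91 and 10.39 against 9.55, 9.78, 10.01 and 10.09 (0.94, adjusted p = 0.754). Both sets of values were apart, with Islr tight among the rich libraries. Foxc1, a forkhead factor needed for meningeal development, stood at 8.78 to 11.17 in the rich and at 4.24 to 9.39 in the poor libraries. Mgp, matrix Gla protein, stood at 15.07, 14.32, 13.80 and 13.27 against 13.56, 13.81, 14.05 and 12.27, with overlap. Cdh11, a cadherin of mesenchymal cells, differed by 1.40, Gjb2, a gap junction gene, by 1.62 and Serping1, a complement inhibitor, by 1.14, all with overlap.

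Not every fibroblast gene went with Col1a2, and 6 of the 33 tested had a negative difference. Ptgds, the prostaglandin D synthase of leptomeninges and choroid plexus, stood at 11.98, 12.25, 13.60 and 13.65 in the rich libraries and at 13.46, 13.80, 14.59 and 12.74 in the poor ones, a difference of -0.78 with overlap. Slc47a1, a transporter of organic cations, and Pdgfra, a receptor of fibroblasts, had positive differences of 0.51 and 3.14, both with overlap. Pdgfra had reads in all 4 rich libraries (5.60 to 9.56) and in 3 of 4 poor ones (up to 8.73). Summed, the identity list overlapped, at 0.799 to 1.53% of the rich and 0.366 to 0.865% of the poor libraries, and 2 poor libraries lay above every library between. Vim, an intermediate filament gene of fibroblasts and endothelium that is in no list, stood at 12.26, 10.71, 10.90 and 10.46 against 10.58, 9.40, 8.45 and 8.67 (difference 1.81, limma adjusted p = 0.754).

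**Figure D4:**
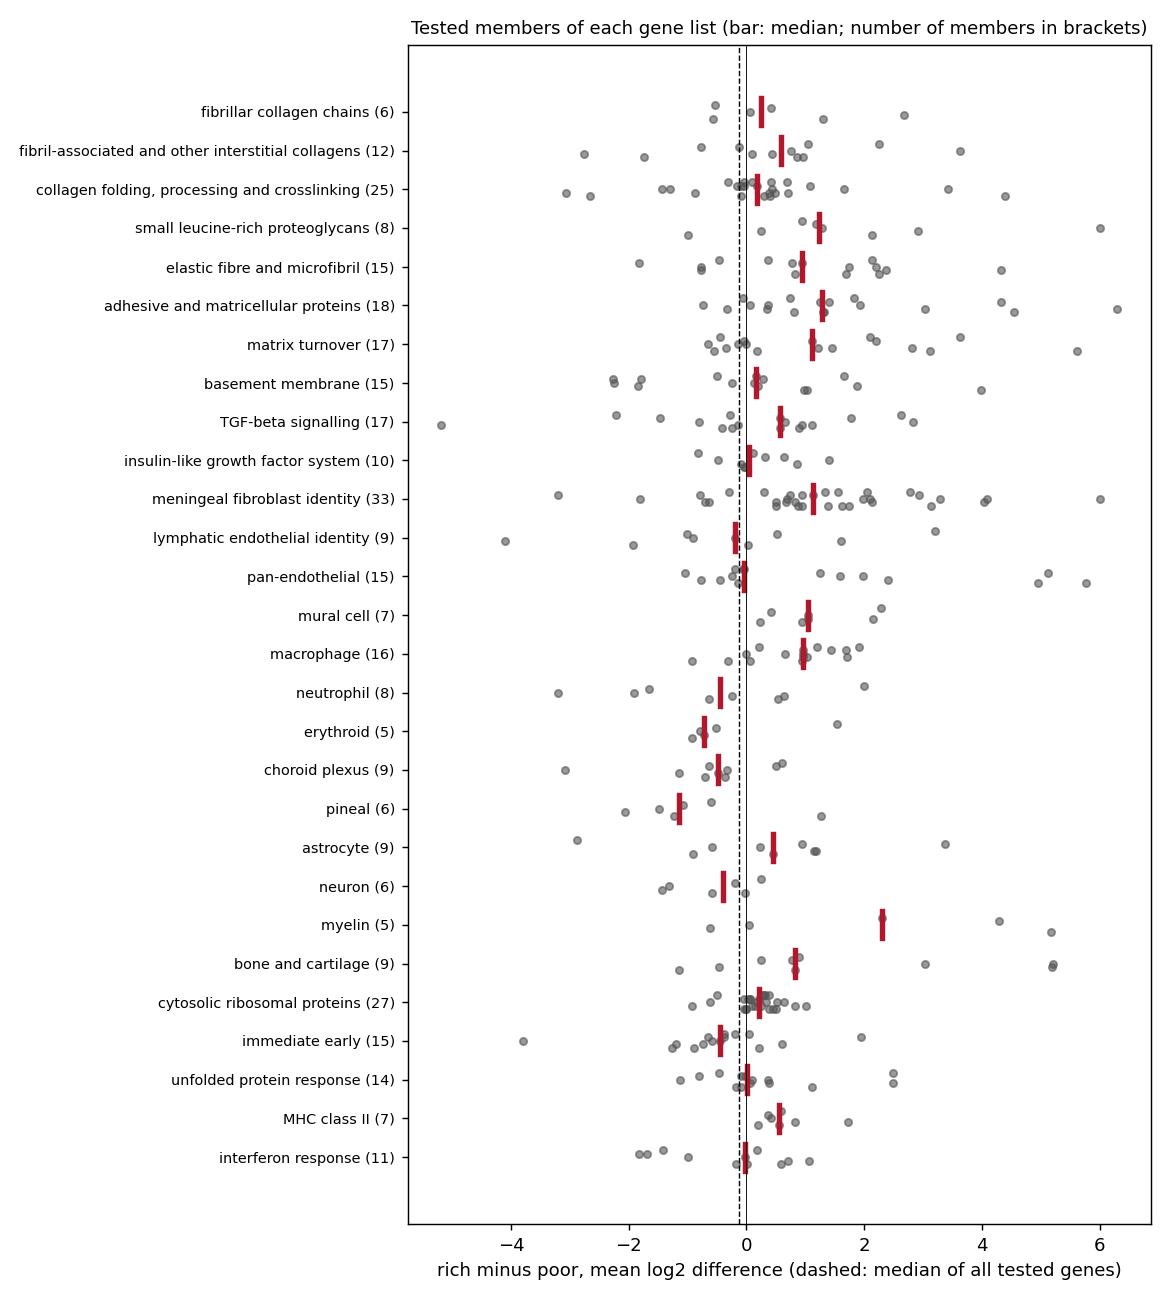
Each row is a gene list, each grey point the rich minus poor difference of a tested member in log2 units, and each red bar the median; lists with 3 or fewer tested members are not drawn. The medians of fibroblast identity (1.14), decorin family (1.23) and adhesive proteins (1.28) lie right of the dashed median of all tested genes (-0.12), as do those of myelin (2.31), mural cell (1.05) and macrophage (0.97) genes, and those of the pineal (-1.15) and choroid plexus (-0.48) lists left of it.

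Markers of other cell types moved with the sets as well, and their part in the results above was not tested. The 16 macrophage genes were all tested, 13 had a positive difference and the median was 0.97. Besides Mrc1, the sets stood apart in Cd163, the haemoglobin scavenger receptor (9.63 to 11.32 against 6.92 to 9.38), Pf4, a chemokine of border macrophages (11.04 to 11.48 against 9.35 to 10.74), and Ctss, a lysosomal protease (11.20 to 11.93 against 9.82 to 11.15). Csf1r, the macrophage growth factor receptor, averaged 12.57 ± 0.41 in the rich and 12.50 ± 0.65 in the poor libraries (SD, n = 4), so the list was not uniformly higher. The complement gene C1qc differed by 0.97 and lysozyme, Lyz2, by 1.44, both with overlap. Summed, the 16 genes made up 0.464 to 0.780% of the rich and 0.263 to 0.521% of the poor libraries, and every one had reads in each of the 8.

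The 7 MHC class II genes all had a positive difference, with a median of 0.55. H2-Ab1, a chain of the antigen-presenting dimer, stood at 12.63, 12.65, 13.88 and 13.10 in the rich and at 12.19, 12.24, 12.47 and 12.06 in the poor libraries (0.82, limma adjusted p = 0.754). Cd74, the invariant chain, overlapped, at 12.60 to 14.04 against 12.05 to 13.20. The highest values of both came from SJL_B6 replicate 2, not from the library with the most Col1a2. Of 11 listed mural cell genes 7 were tested and all 7 were positive, with a median of 1.05. Acta2, the smooth muscle actin, stood at 9.47 to 10.76 against 7.57 to 9.94, and summed the list made up 0.0175 to 0.0411% of the rich and 0.00398 to 0.0300% of the poor libraries.

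Lymphatic endothelial markers stood near the background. Of 14 listed, 9 were tested, 4 had a positive difference and the median was -0.19. Prox1, the master regulator of lymphatic identity, had no reads in the 4 rich libraries and had reads in 1 poor library, SJL_B6 replicate 1, at 8.38. Lyve1, the hyaluronan receptor of lymphatic vessels and of some macrophages, stood at 8.84, 10.39 and 7.79 in rich libraries, was listed at 0 in AD_B6 replicate 3, and stood at 8.80, 8.53, 8.90 and 8.45 in the poor ones. Flt4, the VEGF-C receptor, had reads in 1 rich library, at 7.69, and in 3 poor ones, at 7.33, 8.82 and 7.91. Pdpn, podoplanin, stood at 7.85 to 10.33 against 9.37 to 10.62, and Nr2f2, a venous and lymphatic factor, at 9.78 to 11.15 against 9.69 to 10.64. Summed, the list made up 0.0441 to 0.0682% of the rich and 0.050 to 0.0703% of the poor libraries. Gja4, like Prox1, had no reads in the rich libraries, and likewise 2 listed genes had none in the poor ones.

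The general endothelial list was near the background too, with 7 of 15 tested genes (16 listed) positive and a median of -0.04. Without AD_B6 replicate 3, 11 of the 15 were positive and the median was 0.65, beside 53.1% and 0.10 over all tested genes. Pecam1, the junction protein of all endothelium, had reads in 3 rich libraries, at 9.85, 6.70 and 7.67, and in 1 poor library, at 4.37. Summed, the list made up 0.0301 to 0.0593% of the rich and 0.0221 to 0.0341% of the poor libraries.

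The pineal and choroid plexus lists leaned the other way. Of 8 pineal genes 6 were tested, and 5 of these had a negative difference, with a median of -1.15. Tph1, the enzyme that starts melatonin synthesis, stood at 10.44, 12.71, 13.39 and 12.04 in the rich and at 13.77, 13.67, 12.51 and 13.52 in the poor libraries, a difference of -1.22 (limma adjusted p = 0.754). Crx, a homeobox factor of pineal and retina, stood apart, at 6.41 to 8.79 in the rich and 9.21 to 11.40 in the poor libraries. Summed, the pineal list made up 0.0716 to 0.261% of the rich and 0.138 to 0.386% of the poor libraries, and Asmt and Aanat, which complete melatonin synthesis, each had reads in 1 of the 8. Of 9 choroid plexus genes, all tested, 7 were negative, with a median of -0.48.

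Choroid plexus RNA varied far more within the sets than between them. Ttr, the transthyretin of its epithelium, stood at 17.48, 16.59, 13.38 and 18.13 in the rich and at 17.29, 13.92, 18.51 and 18.69 in the poor libraries. A library of each set, SJL_B6 replicate 2 and AD_B6 replicate 1, was far below the others. Enpp2, the secreted enzyme autotaxin, had its lowest values in the same libraries, 11.86 and 11.87. Summed, the list made up 0.297 to 5.71% of the rich and 0.388 to 7.71% of the poor libraries, and 6.55 to 11.2% of the libraries between. The sum takes up part of each library's total, so it can move the share of every other list, and its part was not tested.

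**Figure D5:**
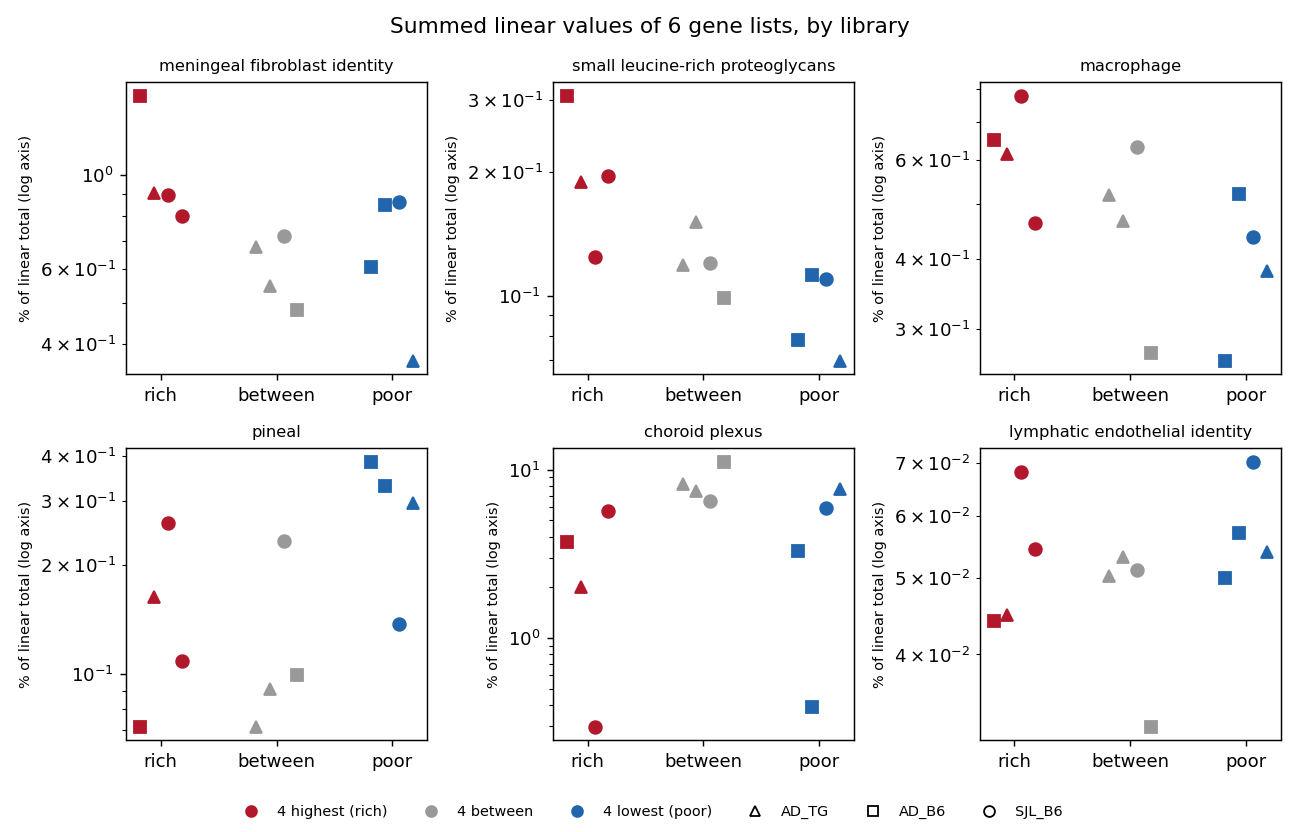
Each panel plots the summed linear values of a gene list as a percent of the library's linear total, on a log axis, for the 4 rich, 4 between and 4 poor libraries, with shape for the label. The decorin family is apart between rich (0.124 to 0.307%) and poor (0.0696 to 0.112%), while fibroblast identity, macrophage, pineal, choroid plexus and lymphatic lists overlap.

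Among the lists with 4 or more tested members, myelin genes had the highest median. Of 9 listed, 5 were tested, 4 of these had a positive difference and the median was 2.31. Summed, the list made up 0.020 to 0.0476% of the rich and 0.0112 to 0.0324% of the poor libraries, with overlap. Of 9 tested bone and cartilage genes, 7 were positive (median 0.83). Of 5 tested erythroid genes 4 were negative, and Hba-a1, an alpha globin, stood at 11.65 to 13.43 in the rich and at 12.94 to 13.98 in the poor libraries. Neutrophil genes were positive in 3 of 8 tested (median -0.44), neuronal genes in 1 of 6 (-0.39), and astrocyte genes in 6 of 9 (0.45). Immediate early genes, which cells induce within minutes of a stimulus, were positive in 4 of 15, with a median of -0.45. Ribosomal protein genes were positive in 20 of 27 (median 0.21), unfolded protein response genes in 7 of 14 (0.02) and interferon response genes in 5 of 11 (-0.02). B cell (1 of 3), melanocyte (1 of 3), T and NK cell (0 of 1) and muscle genes (1 of 1) had few tested members.

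Without AD_B6 replicate 3, 53.1% of all tested genes had a positive difference, with a median of 0.10, the background for the counts that follow. The number of tested members with a positive difference was then 5 of 6 for the fibrillar chains (median 1.23) and 8 of 12 for the other collagens (0.31). It was 16 of 25 for collagen processing (0.12) and 7 of 8 for the decorin family (1.70). It was 11 of 15 for elastic fibres (0.67), 14 of 18 for adhesive proteins (1.02), 9 of 17 for turnover (0.10), 8 of 15 for basement membrane (0.16), 12 of 17 for TGF-beta (0.31) and 5 of 10 for insulin-like growth factors (-0.0048). Macrophage genes then had 12 of 16 (0.92), MHC class II 7 of 7 (0.78), mural cell 6 of 7 (1.43), lymphatic 5 of 9 (0.02), pineal 1 of 6 (-0.66), neuronal 3 of 6 (-0.26) and choroid plexus 2 of 9 (-0.31). Positive differences were then found in 4 of 5 myelin (1.98), 7 of 9 bone and cartilage (0.90), 6 of 9 astrocyte (0.34), 3 of 8 neutrophil (-0.27) and 1 of 5 erythroid genes (-0.37). The same omission gave 20 of 27 for ribosomal protein (0.25), 5 of 15 for immediate early (-0.24), 8 of 14 for unfolded protein response (0.22) and 5 of 11 for interferon response genes (-0.04).

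The libraries between served as a look at the whole range. Over all 12 libraries, the genes most like Col1a2 among those with reads in each were Gdf10, a ligand of the TGF-beta family (r = 0.887), B2m, the light chain of MHC class I (0.886), Igfbp5 (0.884) and Dcn (0.884). After them came AF251705 (0.870), Slc23a2 (0.854), Marcks, an actin-binding kinase substrate (0.850), Sepp1 (0.846), Col3a1 (0.844) and Emilin1 (0.841). They were chosen for this likeness among 4949 genes, and all points share the scaling of their library, so these values describe the data. Spearman's rho for the 10 ran from 0.818 to 0.937. Without AD_B6 replicate 3 and AD_TG replicate 2, the libraries farthest from the median of Col1a2, r was 0.752 for Gdf10, 0.903 for B2m, 0.828 for Igfbp5, 0.754 for Dcn and 0.906 for Col3a1. Marcks had the lowest, 0.712.

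B2m moved over a narrow range and in small steps, at 12.63, 12.75, 12.96 and 12.63 in the rich libraries, 12.04 to 12.49 between and 11.91, 11.79, 12.23 and 11.77 in the poor ones. Its difference was 0.82, and the limma adjusted p of 0.754 did not pass. Gdf10 covered a wider range, at 11.82, 9.80, 10.24 and 8.92 in the rich libraries and at 8.44, 8.14, 8.59 and 6.37 in the poor ones. AF251705 stood at 8.61 to 9.63 in the rich and at 5.72 to 6.88 in the poor libraries. In all 3 of these genes the rich libraries lay above the poor ones, and most values of the libraries between lay among or between them.

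Split by label, the matrix genes Dcn, Emilin1 and Fn1, the macrophage gene Mrc1 and the fibroblast gene Islr had a positive difference in each. For Dcn the rich libraries exceeded the poor by 2.53 in AD_TG, 3.06 in AD_B6 and 1.37 in SJL_B6. Mrc1 had 1.39, 2.27 and 1.69 in the same labels, Emilin1 2.96, 3.30 and 0.95, Fn1 1.76, 2.32 and 0.57, and Islr 2.03, 1.20 and 2.04. Other genes differed in sign or size between labels: Mgp had 2.05 in AD_TG, 1.39 in AD_B6 and -0.51 in SJL_B6, and Tph1 had -0.81, -3.28 and 0.20. Islr does not stand for every gene of the fibroblast identity list. Pdgfra, Foxc1 and Slc47a1 were positive in AD_TG and AD_B6 but had -1.30, -0.03 and 0.01 in SJL_B6. Zic1, Cdh11, Gjb2, Serping1 and Lum were positive in each label, and Ptgds was negative in each. With 1 or 2 libraries a side, these splits have no test.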

How the data were processed

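The authors deposited, for each of 12 libraries, a file of log2 values per gene symbol, which the values show to be log2(x + 1) of scaled amounts. The submitters' processing notes name bedtools, Bowtie2 and, as the build, hg19. That build is human, whereas the symbols are those of the mouse, and the scaling is not given in the sources used here. Each file had 23282 entries. Keeping the entry of highest mean for each of 35 repeated symbols left out 44 entries and gave 23238 symbols, 99.5% of which matched a current mouse symbol or synonym.

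The value of 1 read, 0.697 to 1.73 on the linear scale, was read from the steps among low values. Of the values below 20, 91.3 to 100% were whole multiples of that step, to within 0.15 of a step. A gene had reads at a linear value of 0.3 or more. Counts per library were not recovered exactly, so no count test was run.

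Genes other than Col1a2 that reached 10 on the linear scale in 4 or more of the 12 libraries were compared between the 4 rich and 4 poor libraries with limma 3.58.1 in R 4.3.3 (lmFit, eBayes with trend), two-sided, on the log2(value + 1) scale, which understates changes of low genes. P-values were adjusted by Benjamini-Hochberg over 11954 genes, with 0.05 as the threshold. Single values were compared by exact two-sided permutation tests. The fit was checked on simulated data. Ccn1, Ccn2, Ccn3, Ccn5 and Epb42 were matched as Cyr61, Ctgf, Nov, Wisp2 and Epb4.2, and Trbc2 was not matched. RefSeq supplied the promoters.

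The genes named were the 10 with the smallest p per direction among genes with reads in all 12 libraries, 5 per direction among the others, the 10 most correlated with Col1a2, 5 endothelial markers, and 52 examples chosen after their values were seen; 1 of these genes is not reported here. The sets and the 32 gene lists (429 genes) were chosen with earlier results of these data known. Alternatives covered the covariates, block, scaling, pseudocount, filters, variance trend and each left-out library. For the list counts only, median centring, the level minimum and the fit without AD_B6 replicate 3 were added after seeing the data.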

Additional observations from a re-analysis of the deposited data

Results flagged for a closer look

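In 84 sets of 4 values, 5 held a library that stood far from the other 3 by Dixon's ratio, whose limit chance passes in about 1 of 20 such sets. Among the rich libraries, Slc23a2 was highest in AD_B6 replicate 3, at 12.84, and Lhx3 was highest in SJL_B6 replicate 2, at 11.67. Among the poor libraries, AF251705 was lowest in AD_B6 replicate 1, at 5.72, and Flt4 was listed at 0 in AD_B6 replicate 2. The number of genes with reads was lowest in AD_B6 replicate 3, at 8748. These values were not followed further.

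Lyve1 differed in sign between labels: the rich libraries stood above the poor ones by 0.39 in AD_TG and by 0.19 in SJL_B6, and below them by -8.67 in AD_B6, where AD_B6 replicate 3 was listed at 0. This difference between labels was not tested.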

How the results depend on the processing

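The number of genes called, 2, stayed 2 with the label as a covariate (Igfbp5 and Col3a1) and with a trend on Col1a2 over all 12 libraries (Igfbp5 and Dcn), and was 3 with median centring or a pseudocount of 10, each time with Dcn added. It was 0 with the libraries between as a set of their own, 0 with a filter of 1 library and 0 among genes with reads in all 12 libraries, and 19 without the variance trend. Leaving out a library gave 0 to 5. The cause was not tested, except that the filters change which genes are tested.

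Libraries that share a replicate number were not taken as paired. Their deviations from the label means correlated at -0.006 to 0.086 over 12 pairs, none above 0.1. The median was 0.022, beside -0.017 for pairs of different numbers. Yet 8 of 12 libraries correlated best with a library of their own number, though most of their partners had other numbers. The low correlations therefore do not show that the number can be ignored. Whether the number marks something that libraries share was not tested. With the replicate block, the limma contrast rests on number 2, with SJL_B6 replicate 2 alone against AD_B6 replicate 2 and AD_TG replicate 2. It holds a single rich library and cannot be told apart from the label. Folr1, of the choroid plexus list, then differed by -10.54. It was listed at 0 in SJL_B6 replicate 2, the library lowest in choroid plexus RNA (0.297% of its total). Under the block, Igfbp5 was 0.82 and Col3a1 1.86 (adjusted p = 1.0 for both, limma), Lhx3 -0.24 and Plekhh2 -0.26, and over all tested genes 53.3% were positive with a median of 0.09. Lyve1 was 1.76, Pdpn 0.82, Ptgds 0.50 and Nr2f2 -0.34. With the label as a covariate, Timp2 was -0.17 and Csf1r -0.14.

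Of 91 genes chosen for naming and tested, 80 kept their sign under every alternative run. Most were chosen by their values in these data, and the alternatives reuse the same libraries, so a kept sign is no independent support. Leaving out 1 library gave -3.13 to 0.33 for Lyve1, -0.33 to 0.10 for Col8a1, -0.04 to 0.24 for Sparc, -0.26 to 0.36 for Timp2, -0.36 to 0.25 for Igf2, -0.20 to 0.31 for Csf1r, -1.77 to 0.30 for Ttr, -1.75 to 0.25 for Enpp2 and -0.22 to 0.24 for Nr2f2. For Col1a2 between labels it gave -0.31 to 0.42 (AD_TG against AD_B6), -0.45 to 0.27 (AD_TG against SJL_B6) and -0.57 to 0.11 (AD_B6 against SJL_B6). For rich against poor libraries it gave -1263230 to 460183 in estimated reads and -837 to 107 in genes with reads.

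Genes of low level came and went between libraries, which limits what a comparison of 4 with 4 can show for them. The fitted differences of genes with a library at 0 depend on the pseudocount.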
